A study of Mus musculus with 2 samples.

Results

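Co-stimulatory members of the tumor necrosis factor (TNF) receptor family and the CD40 pair were described across the immune cells of B16Ova tumors. They were chosen by name as Tnfrsf4 (OX40), Tnfrsf9 (4-1BB), Tnfrsf18 (GITR), Cd27, Cd70, Cd40 and Cd40lg (CD40 ligand), 7 of the 27998 genes in the count matrices, and all 7 were found in both libraries. B16Ova is a mouse melanoma line that carries ovalbumin as a model antigen. The KO library came from female mice with floxed Tcf7 alleles and E8i-cre (E8i-cre+, Tcf7 FL/FL), and the WT library from female mice with the same floxed alleles and no Cre (E8i-cre-, Tcf7 FL/FL). Tcf7 encodes the transcription factor TCF1, which naive and memory T cells use, and E8i-cre is a Cre driven in the mature CD8 lineage, so CD4 T cells and myeloid cells were not its target. Cells were injected under the skin of the flank, tumors were taken on day 13, and the cells of 3 tumors were pooled in each library after 2000 cells of each of 4 sorted categories had been taken per tumor. Sorting separated CD8 from CD4 T cells by TCR beta and co-receptor, took dendritic cells by a gate without CD4, CD8 or TCR beta, and kept the remaining CD45-positive cells without those 3 proteins.

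OX40, 4-1BB and GITR are receptors that T cells put on their surface after antigen contact. They recruit TRAF adaptors and activate NF-kB, which supports survival and division, and regulatory T cells carry all of them at high levels. CD27 is present on naive T cells already and binds CD70, a ligand made for a short time by activated lymphocytes and dendritic cells (DCs). CD40 works in the other direction: it sits on DCs, macrophages and B cells, and CD40 ligand on activated helper T cells engages it to license these cells for T cell priming.

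The KO library held 11758449 UMIs (unique molecular identifiers, each counted as 1 captured transcript) in 1219 barcodes, and the WT library 9283014 UMIs in 1120 barcodes. After filters, 1083 KO cells and 983 WT cells remained, with median depths of 8117 UMIs in KO and 6168 UMIs in WT. The libraries shared 1 barcode. Counts were summed over the cells of a class in each library and scaled to the UMIs of that class, as CPM (counts per 1e+06 UMIs). Each group is 1 library, so no test of KO against WT exists and no value has a replicate error. The 95% intervals in brackets cover counting error only. Those of shares treat cells as independent draws and hold no spread between tumors or libraries. In pooled counts of a class, a smaller number of cells with a transcript and less transcript per cell cannot be told apart, and shares of cells are given for that reason. A member is said to lie past the fold when KO and WT differ by at least 1.5-fold with a mean of at least 25 CPM, in classes with at least 50 cells in each library. Tcf7 itself had 53.2 CPM in KO CD8 T cells and 155 CPM in WT CD8 T cells. The gap varied by CD8 subset, with 316 CPM in KO and 431 CPM in WT naive-like cells. Gzmk-positive cells ran the other way, at 252 CPM from 7 UMIs in KO and 170 CPM from 9 UMIs in WT. Every other CD8 subset was lower in KO. The sources used here do not give the deleted exons of Tcf7, so its counts do not test the deletion. Outside the targeted lineage Tcf7 also differed, with 68.2 CPM in KO and 169 CPM in WT conventional CD4 T cells.

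CD8 T cells were gated by a UMI of Cd8a or Cd8b1 without Cd4 among T cell clusters, and CD4 T cells by the reverse. There were 183 KO and 172 WT CD8 T cells, with median depths of 6580 UMIs in KO and 4772.5 UMIs in WT. Of the CD4 T cells, those with a Foxp3 UMI were taken as regulatory T cells (32 in KO, 60 in WT). Naive-like cells (36 in KO, 34 in WT) and the remaining conventional CD4 T cells (109 in KO, 84 in WT) made up the rest. Regulatory T cells carried genes that the gate did not use: Ikzf2, which encodes Helios, was found in 90.6% of KO and 91.7% of WT regulatory T cells, against 22.0% of KO and 19.0% of WT conventional CD4 T cells. They were 18.1% (12.7 to 24.6) of KO CD4 T cells and 33.7% (26.8 to 41.2) of WT CD4 T cells, so the undivided CD4 T cells mix the classes in other proportions in the 2 libraries.

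The genes of OX40, 4-1BB and GITR lie on mouse chromosome 4, and Tnfrsf4 and Tnfrsf18 are near neighbours. In mm10, Tnfrsf4 spans chr4:156013843-156016612 and Tnfrsf18 spans chr4:156026164-156028895, both on the plus strand with 9551 bases between them, and Tnfrsf9 lies apart at chr4:150914562-150946102. The promoter windows of these 3 receptors are shown because the genes were detected together in regulatory T cells. Each runs from 250 bases before to 50 bases after a RefSeq start site on GRCm38.p6, plus strand, 5′ to 3′, and RefSeq gives Tnfrsf9 more than 1 start. Capitals mark matches to GGGNNNNNCC on either strand, a general form of the letters that NF-kB binds, and overlapping matches are merged. The windows are chr4:156013445-156013744 for Tnfrsf4, chr4:156026072-156026371 for Tnfrsf18 and chr4:150927749-150928048 for Tnfrsf9.
Tnfrsf4: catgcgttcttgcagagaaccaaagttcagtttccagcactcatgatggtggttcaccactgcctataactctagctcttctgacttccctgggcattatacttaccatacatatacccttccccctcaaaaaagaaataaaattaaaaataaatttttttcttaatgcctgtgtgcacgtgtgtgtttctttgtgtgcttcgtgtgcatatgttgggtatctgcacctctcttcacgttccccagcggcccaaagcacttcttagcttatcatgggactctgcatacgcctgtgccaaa
Tnfrsf18: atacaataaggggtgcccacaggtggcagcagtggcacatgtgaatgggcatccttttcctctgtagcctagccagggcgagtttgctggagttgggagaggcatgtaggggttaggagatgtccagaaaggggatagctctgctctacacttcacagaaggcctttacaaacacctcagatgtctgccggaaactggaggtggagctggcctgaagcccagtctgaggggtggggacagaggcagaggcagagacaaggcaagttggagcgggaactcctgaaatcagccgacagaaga
Tnfrsf9: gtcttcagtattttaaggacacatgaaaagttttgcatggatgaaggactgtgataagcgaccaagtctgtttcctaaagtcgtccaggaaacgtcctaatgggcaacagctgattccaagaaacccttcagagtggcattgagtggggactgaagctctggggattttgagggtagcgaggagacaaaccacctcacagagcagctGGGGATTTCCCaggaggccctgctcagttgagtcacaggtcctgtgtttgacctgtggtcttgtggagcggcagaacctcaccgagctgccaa
The letters are found in this Tnfrsf9 window at 43 and 42 bases before the start site. They are found neither in the Tnfrsf4 and Tnfrsf18 windows nor in the window of the other Tnfrsf9 start, chr4:150919905-150920204, which is not printed. Of 32851 promoter windows of this length, 16686 (50.8%) hold such a match, so its presence or absence is a description of the letters only.

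Tnfrsf4 was highest in regulatory T cells of both libraries. They held 1634 CPM (1497 to 1779) in KO and 1659 CPM (1552 to 1772) in WT, a ratio of 0.985 (0.883 to 1.10). T cells with both co-receptors had 899 CPM in KO and 727 CPM in WT, and those with neither had 728 CPM in KO and 778 CPM in WT. Conventional CD4 T cells came next among the subsets gated by 1 co-receptor, with 667 CPM (613 to 724) in KO and 350 CPM (294 to 414) in WT. In the KO library cytotoxic CD8 T cells at 408 CPM and mature DCs at 399 CPM followed with overlapping intervals, and cycling CD8 T cells had 306 CPM. In the WT library the order after conventional CD4 T cells was macrophages at 294 CPM (nearly all in cells that also held T cell markers), mature DCs at 268 CPM, cytotoxic CD8 T cells at 174 CPM and cycling CD8 T cells at 141 CPM, where each neighbour's interval overlapped the next except between mature DCs and cytotoxic CD8 T cells. Naive-like CD8 T cells had 0 Tnfrsf4 UMIs in 36 KO and 39 WT cells, which allows shares of cells with a UMI of up to 8.33% in KO and 7.69% in WT, at median depths of 3681 UMIs in KO and 4469 UMIs in WT, and does not limit the share of cells that express the gene. Naive-like CD4 T cells were low, at 123 CPM in KO and 121 CPM in WT.

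Tnfrsf9, known for marking recently stimulated CD8 T cells, was also highest in regulatory T cells, at 1272 CPM (1152 to 1401) in KO and 1099.7 CPM (1013 to 1192) in WT. Cytotoxic and cycling CD8 T cells came next among the subsets gated by 1 co-receptor. T cells with both co-receptors had 387 CPM in KO, below those CD8 classes, and 645 CPM (556 to 744) in WT, above them. The cytotoxic cells had 642 CPM in KO and 464 CPM in WT, and the cycling cells had 545 CPM in KO and 399.8 CPM in WT. The 2 CD8 classes overlapped in their intervals within each library. Conventional CD4 T cells held 306 CPM in KO and 171 CPM in WT. Natural killer cells had 222 CPM in KO and 311 CPM in WT, from 37 KO and 23 WT UMIs. In naive-like CD8 T cells Tnfrsf9 had 0 UMIs in KO and 16 UMIs in WT, and all 16 came from 1 cell.

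Tnfrsf18 followed the same leading class but reached further down. Regulatory T cells had 911 CPM (810 to 1021) in KO and 952 CPM (872 to 1039) in WT, a ratio of 0.956 (0.826 to 1.11). Conventional CD4 T cells had 403 CPM in KO and 426 CPM in WT, and in KO this interval overlapped that of cytotoxic CD8 T cells (368 CPM). In WT the interval of natural killer cells (365 CPM) overlapped it, from 27 UMIs. Unlike Tnfrsf4, the gene was present in naive-like CD8 T cells, at 126 CPM in KO and 70.1 CPM in WT, from 18 KO and 13 WT UMIs.

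Cd27 was spread over T cell classes with less contrast. Cytotoxic CD8 T cells had 288 CPM (246 to 335) in KO and 214 CPM (171 to 265) in WT, and regulatory T cells had 247 CPM (196 to 308) in KO and 207 CPM (170 to 249) in WT. The intervals of these classes overlapped in each library. Naive-like CD8 T cells had 182 CPM in KO and 108 CPM in WT. The lowest of the T cell classes with at least 20 cells was conventional CD4, with 96.5 CPM in KO and 63.0 CPM in WT.

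**Figure D1:**
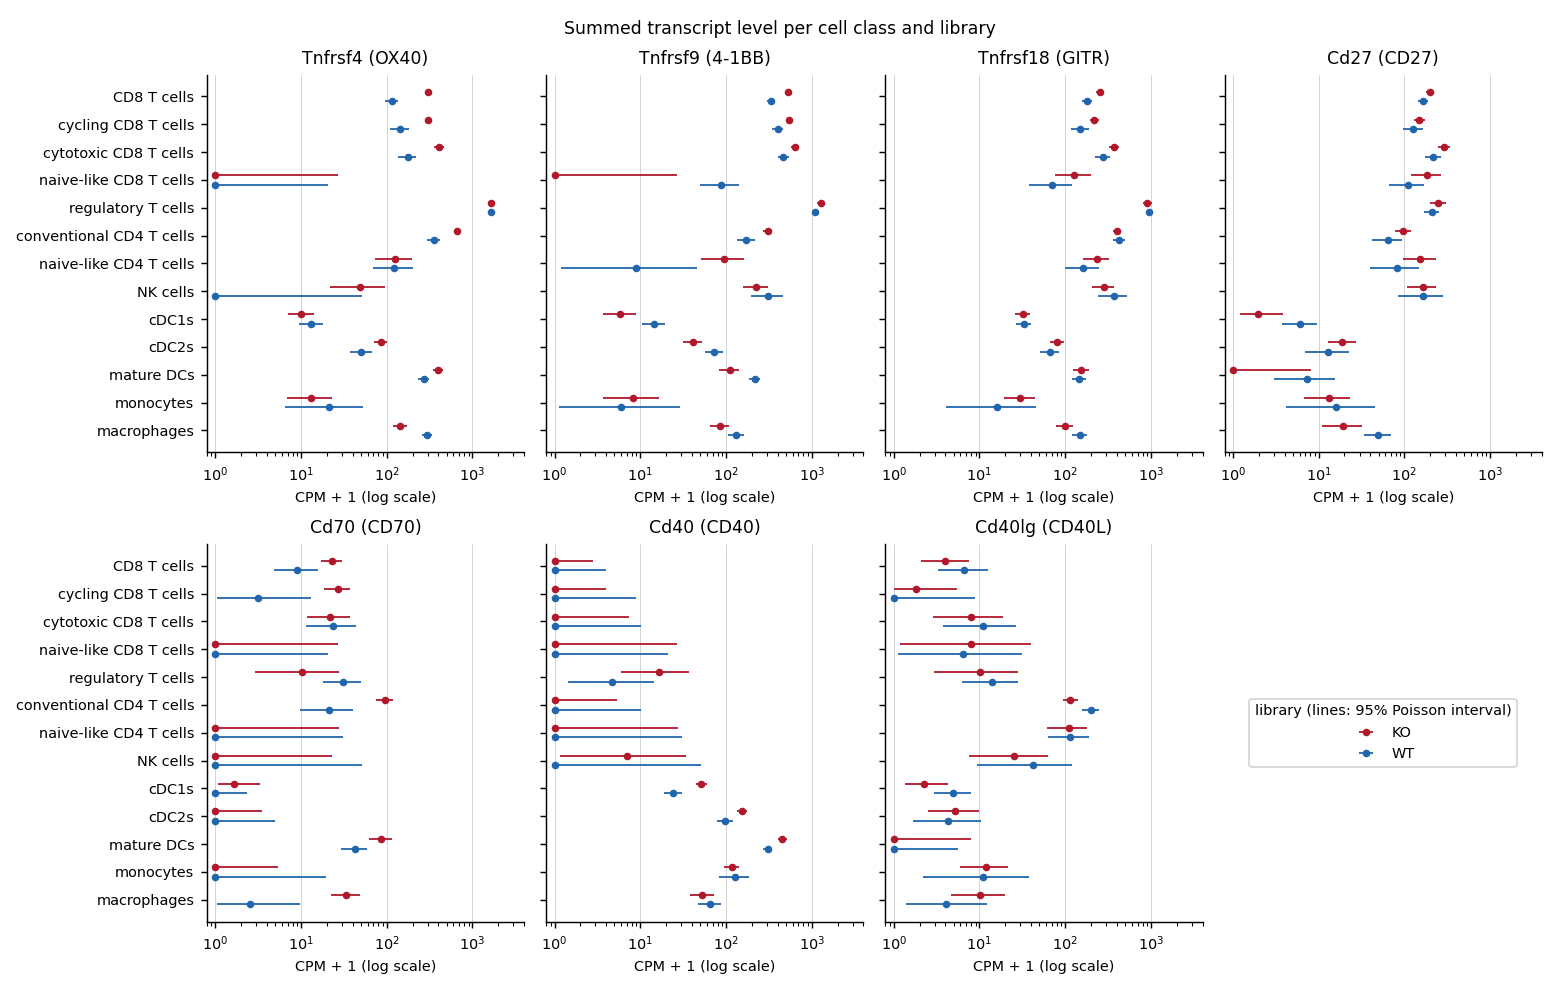
Summed level of each of the 7 genes in CPM plus 1 on a log axis, by cell class, with KO and WT points side by side and lines for the 95% Poisson interval. Regulatory T cells hold the highest points of Tnfrsf4, Tnfrsf9 and Tnfrsf18 in both libraries, Cd40 sits in the antigen-presenting classes, and Cd40lg in conventional and naive-like CD4 T cells.

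In the CD8 lineage, where Tcf7 was targeted, Tnfrsf4 and Tnfrsf9 were higher in the KO library and Tnfrsf18 and Cd27 were closer between libraries. Tnfrsf4 had 306 CPM (282 to 331) from 615 UMIs in KO CD8 T cells and 114 CPM (95.6 to 134) from 141 UMIs in WT CD8 T cells, a ratio of 2.69 (2.24 to 3.26). Tnfrsf9 had 524 CPM in KO and 330 CPM in WT, a ratio of 1.59 (1.41 to 1.78). Tnfrsf18 had 252 CPM in KO and 179 CPM in WT, a ratio of 1.41 (1.20 to 1.66). For Cd27 the values were 195 CPM in KO and 165 CPM in WT, a ratio of 1.18 (0.997 to 1.41). Of the 4 members measured at 25 CPM or more, 2 lay past the fold, both higher in KO, where 12.7% of all 4368 genes measured in this class did. The median log2 ratio of the 4 was 0.58, beside 0.05 for all genes.

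More CD8 T cells of the KO library held a Tnfrsf4 UMI, also at equal depth. A UMI was found in 68 of 183 KO cells (37.2%) and 28 of 172 WT cells (16.3%). Each cell was then thinned to 2000 UMIs, which left out 7 KO and 11 WT cells. The thinned shares were 17.6% (12.3 to 24.1) in KO and 8.70% (4.84 to 14.2) in WT. The difference was 8.92 percentage points (1.29 to 16.4), an interval over single cells that does not measure a difference between genotypes. Type 1 conventional DCs (cDC1s) had 28 Tnfrsf4 UMIs in KO (8.99 CPM) and 34 in WT (12.2 CPM). Without cells holding T cell transcripts cDC1s had 2 in KO and 0 in WT, at median depths of 16606 UMIs in KO and 15649.5 UMIs in WT. That filter removes cells by their T cell transcripts, so the lower counts do not measure the background of the gene in CD8 T cells. For Tnfrsf9 the thinned shares were 30.7% in KO and 14.3% in WT.

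The CD8 class is not made of the same cells in the 2 libraries, and its clusters held the receptors at different levels. Cluster 7, led by Gzmc, Prf1 and Xcl1, held 60 of the KO and 25 of the WT CD8 T cells, while cluster 8, led by Gzma and Gzmk, held 38 of the KO and 68 of the WT cells. In cluster 7, Tnfrsf4 had 341 CPM in KO and 304 CPM in WT, a ratio of 1.12 (0.901 to 1.41). Tnfrsf9 in that cluster had 784 CPM in KO and 750.4 CPM in WT, a ratio of 1.04 (0.908 to 1.20). Cluster 8 had 0 Tnfrsf4 UMIs in KO and 1 in WT. Naive-like cluster 2 (45 KO and 44 WT cells) likewise held 0 in KO and 1 in WT. In cycling cluster 10 (28 KO and 15 WT cells), Tnfrsf4 had 345 CPM from 216 UMIs in KO and 52.2 CPM from 16 UMIs in WT, a ratio of 6.60 (3.97 to 11.8). Cd27 ran otherwise, with 254 CPM in KO and 161 CPM in WT in cluster 8, a ratio of 1.57 (1.01 to 2.44). The CD8 gate did not exclude Foxp3, and 6 KO and 4 WT CD8 T cells held a Foxp3 UMI. Among cycling CD8 T cells of any cluster, 3 KO and 0 WT cells did. How many of them lay in cluster 10 was not counted, and its Tnfrsf4 ratio without such cells was not computed.

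**Figure D2:**
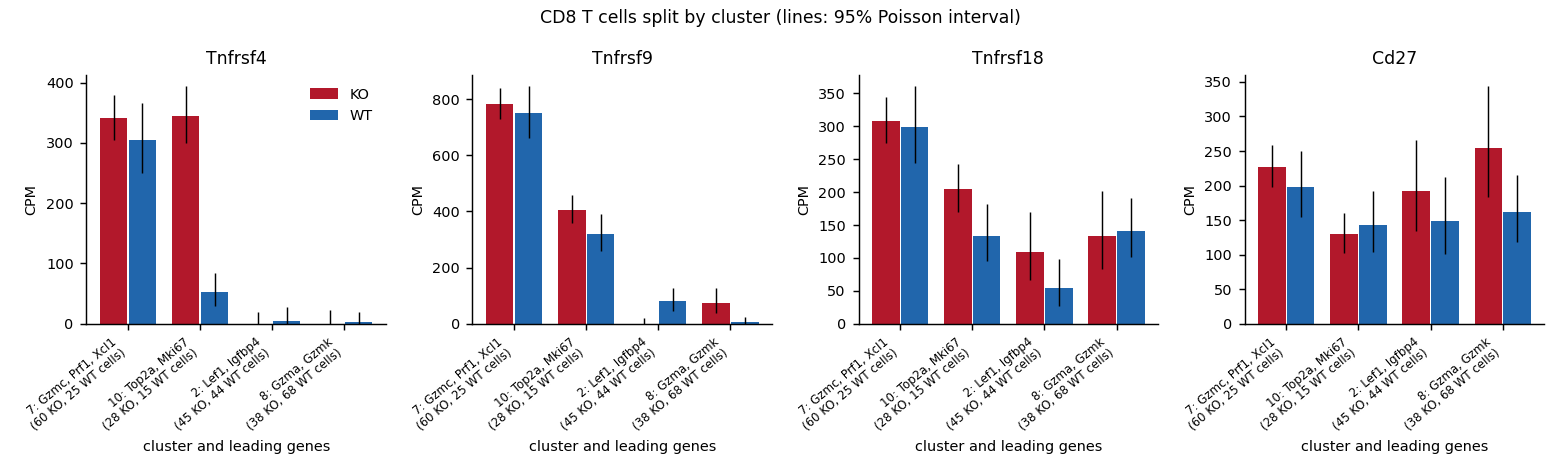
Summed level in CPM of Tnfrsf4, Tnfrsf9, Tnfrsf18 and Cd27 in CD8 T cells of each cluster, with KO left of WT and lines for the 95% Poisson interval. In cluster 7 the Tnfrsf4 bars stand at 341 CPM in KO and 304 CPM in WT, and in cluster 10 at 345 CPM in KO and 52.2 CPM in WT.

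Cycling cells were 30.6% of the KO and 12.8% of the WT CD8 T cells. Being deeper, they gave more of the pooled UMIs, 1242517 of 2012759 in KO and 467779 of 1242143 in WT. Their part in the class values was not tested. Without the cycling cells, Tnfrsf4 had 305 CPM in KO and 96.9 CPM in WT, a ratio of 3.15 (2.42 to 4.14), and Tnfrsf9 had a ratio of 1.70 (1.44 to 2.02). Tnfrsf18 then lay past the fold too, with 308 CPM in KO and 198 CPM in WT, a ratio of 1.56 (1.27 to 1.92). Cd27 stayed within the fold, with 271 CPM in KO and 189 CPM in WT, a ratio of 1.44 (1.16 to 1.79). Among cycling CD8 T cells (56 in KO, 22 in WT), Tnfrsf4 had 306 CPM in KO and 141 CPM in WT, a ratio of 2.17 (1.67 to 2.86). In cytotoxic cells that were not cycling (79 in KO, 61 in WT), Tnfrsf4 alone of the 4 measured members lay past the fold, at a ratio of 2.34 (1.78 to 3.11), where 19.4% of all genes did. The thinned shares of these cells with a Tnfrsf4 UMI were closer, at 15.8% in KO and 13.8% in WT. Tnfrsf9 in those cells had a ratio of 1.38 (1.16 to 1.66). Cluster 5, led by Ctla4 and Foxp3, held 2 KO and 2 WT CD8 T cells, which were not cycling. They gave 65 of the 235 KO and 8 of the 75 WT Tnfrsf4 UMIs of CD8 T cells that were not cycling. Both KO cells were in the cytotoxic class. The ratios without these cells were not computed.

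Genes downstream of these receptors went in both directions in CD8 T cells, where 12.7% of all genes lay past the fold. Of 16 measured TRAF adaptors and NF-kB genes, 1 was higher in KO and 2 were lower, with a median log2 ratio of -0.05 beside 0.05 for all genes. The higher one was Nfkb2, which encodes the precursor of the NF-kB subunit p52, with 71.0 CPM in KO and 41.9 CPM in WT. Tnfaip3, which encodes the NF-kB inhibitor A20, had 76.0 CPM in KO and 129 CPM in WT. Of 5 measured survival genes, 2 were lower in KO and 0 were higher. These were Bcl2, with 57.6 CPM in KO and 94.2 CPM in WT, and Mcl1, with 50.7 CPM in KO and 95.8 CPM in WT. Among the 2 measured TNF ligands, the death ligand gene Fasl was higher, with 91.9 CPM in KO and 55.5 CPM in WT, a ratio of 1.65 (1.25 to 2.21).

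Within each library, the regulatory T cells stood above the conventional CD4 T cells for all 4 co-stimulatory receptors and below them for Cd40lg. The regulatory to conventional ratio of Tnfrsf4 was 2.45 (2.17 to 2.76) in KO and 4.74 (3.96 to 5.70) in WT. Tnfrsf9 had ratios of 4.16 (3.55 to 4.88) in KO and 6.42 (4.99 to 8.37) in WT. Tnfrsf18 had 2.26 (1.93 to 2.65) in KO and 2.24 (1.88 to 2.68) in WT. For Tnfrsf4 the intervals of the 2 libraries did not overlap, and for Tnfrsf18 they nearly coincided. Cd27 stood at 2.56 (1.86 to 3.53) in KO and 3.28 (2.11 to 5.29) in WT. Cd40lg was at 0.0812 (0.0165 to 0.244) in KO and 0.0655 (0.0255 to 0.141) in WT. All 5 measured members thus lay past 1.5-fold in the same direction in both libraries, where 8.12% of 4358 genes did. Cd70 was not among these 5. In WT it had 29.8 CPM in regulatory and 20.2 CPM in conventional CD4 T cells, a mean just under the CPM limit. Its ratios ran in opposite directions, at 0.0984 (0.0199 to 0.298) in KO and 1.48 (0.597 to 3.99) in WT. They came from 3 regulatory and 80 conventional UMIs in KO, and from 16 and 8 UMIs in WT. The limit of 50 cells, set for KO against WT, was not used within a library: the KO regulatory class holds 32 cells, and cells of 1 library are not replicates.

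The 3 chromosome 4 receptors were found together in most regulatory T cells. Thinned to 2000 UMIs and without cells carrying myeloid transcripts, 21 of 30 KO regulatory T cells (70.0%) and 34 of 55 WT regulatory T cells (61.8%) held UMIs of Tnfrsf4, Tnfrsf9 and Tnfrsf18 at once. Singly, Tnfrsf4 was found in 28 KO and 49 WT of these regulatory T cells, Tnfrsf9 in 24 and 43, and Tnfrsf18 in 25 and 43. In CD8 T cells 11 of 175 in KO and 7 of 159 in WT held all 3. Their single counts there, in the same gene order, were 31, 54 and 48 in KO and 14, 22 and 39 in WT. Whether the 3 were found together more often than their single shares give was not tested in any class. Among conventional CD4 T cells, 10 of 100 in KO and 6 of 71 in WT held all 3. Mature DCs held all 3 in 1 of 56 KO and 1 of 87 WT cells.

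Other genes of the family and its signalling were counted between the CD4 classes in the same way, where 4.89% of all genes were higher in regulatory T cells of both libraries and 3.24% were lower. Tnfrsf1b (TNFR2), the only gene of the other TNF receptors that was measured there, had 225 CPM in KO and 130 CPM in WT regulatory T cells, against 57.6 CPM in KO and 32.8 CPM in WT conventional CD4 T cells. Of 4 measured TNF ligands, 3 were lower in regulatory T cells of both libraries, namely Fasl, Tnfsf8 and Tnfsf11. Of 17 measured TRAF adaptors and NF-kB genes, 5 were higher in regulatory T cells of both libraries and 0 were lower. These were Traf4, Birc2, Tank, Nfkb2 and Relb, of which Nfkb2 and Relb encode the subunits of the noncanonical NF-kB pathway.

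Among conventional CD4 T cells, which E8i-cre does not target, Tnfrsf4, Tnfrsf9, Cd27 and Cd70 were higher in the KO library and Cd40lg was lower. Tnfrsf4 had 667 CPM in KO and 350 CPM in WT, a ratio of 1.90 (1.58 to 2.31). Tnfrsf9 had 306 CPM (270 to 345) in KO and 171 CPM (133 to 217) in WT, a ratio of 1.78 (1.36 to 2.37). Cd27 had a ratio of 1.53 (0.968 to 2.50), whose interval includes 1, and its direction turned with the gates. Tnfrsf18 differed little, at a ratio of 0.947 (0.786 to 1.15). In all, 5 of 6 measured members lay past the fold, in a class where 27.1% of 4765 genes did.

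These values moved with how the class was drawn. The depth medians were 4183 UMIs in KO and 3491.5 UMIs in WT. When the gates were set on cells thinned to 2000 UMIs, the log2 ratio of Tnfrsf4 was -0.039, that of Tnfrsf9 was -0.67 and that of Cd27 was -0.18. Thinned shares of cells with a Tnfrsf4 UMI were 45.5% in KO and 36.1% in WT, a difference of 9.43 percentage points whose interval ran from -6.29 to 24.4. Cluster 7 held 18 of the KO and 4 of the WT conventional CD4 T cells. The Foxp3-rich cluster held 11 KO and 5 WT cells of this class. An alternative without that cluster, chosen after seeing the data, gave Tnfrsf4 543 CPM in KO and 305 CPM in WT, a ratio of 1.78 (1.45 to 2.21). Cd27 then had a ratio of 1.36 (0.815 to 2.35), within the fold. Tnfrsf18 then had 328 CPM in KO and 427 CPM in WT, a ratio of 0.769 (0.630 to 0.941).

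**Figure D3:**
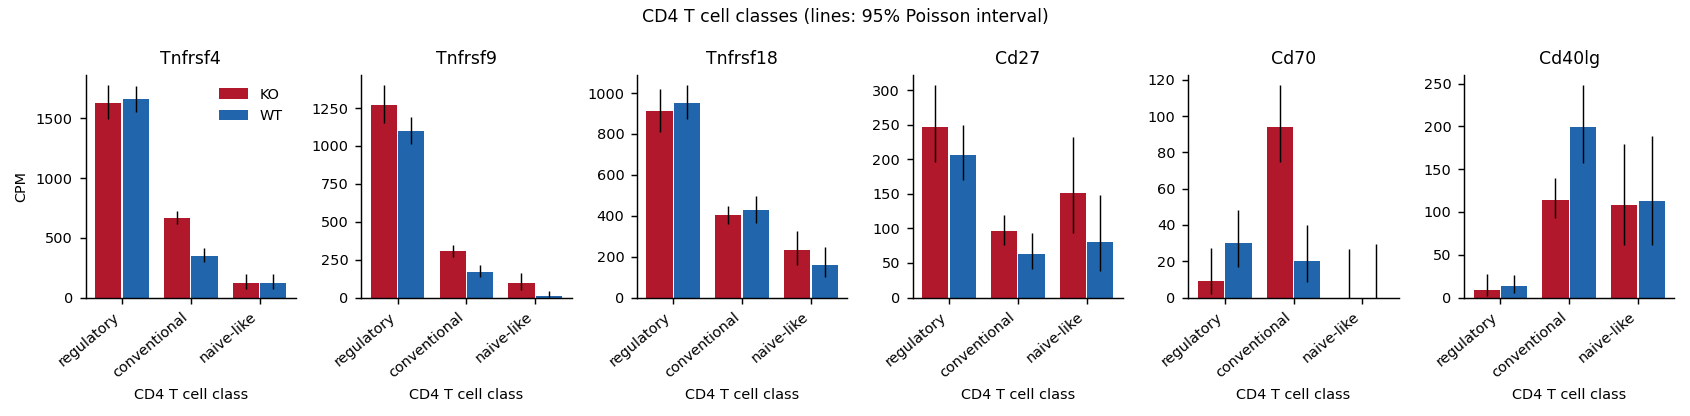
Summed level in CPM of the members in regulatory, conventional and naive-like CD4 T cells, with KO left of WT and lines for the 95% Poisson interval. Tnfrsf4 in regulatory T cells stands at 1634 CPM in KO and 1659 CPM in WT, and in conventional CD4 T cells at 667 CPM in KO and 350 CPM in WT.

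Cd70, the ligand of CD27, was the rarest member and rested on few cells. In conventional CD4 T cells it had 94.1 CPM in KO, from 80 UMIs in 14 cells with 27 of them in 1 cell, and 20.2 CPM in WT, from 8 UMIs in 5 cells. The ratio was 4.67 (2.26 to 11.2), and it takes no account of how few cells gave the UMIs. In CD8 T cells Cd70 had 21.9 CPM in KO and 8.05 CPM in WT, under the 25 CPM limit, and 32 of the 44 KO UMIs lay in cycling cells. Regulatory T cells went the other way, with 9.26 CPM from 3 UMIs in KO and 29.8 CPM from 16 UMIs in WT. Mature DCs gave 44 of all 213 Cd70 UMIs in KO and 33 of 76 in WT, the most of any class in WT. They had 84.4 CPM (61.3 to 113) in KO and 41.5 CPM (28.6 to 58.3) in WT, a ratio of 2.03 (1.27 to 3.30). The thinned share of mature DCs with a Cd70 UMI was 14.3% (6.38 to 26.2) in KO and 3.33% (0.693 to 9.43) in WT. Type 2 conventional DCs (cDC2s) and monocytes had 0 UMIs in both libraries. Macrophages had 25 UMIs in KO, 21 of them in 1 cell, and 1 in WT, and 0 in both without cells holding T cell markers.

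Cd40lg was highest in conventional CD4 T cells. Conventional CD4 T cells held 114 CPM (92.5 to 139) in KO and 199 CPM (158 to 248) in WT, and naive-like CD4 T cells 109 CPM in KO and 113 CPM in WT. T cells with neither co-receptor, which the gates put in no subset, were level with the naive-like cells at 104 CPM in KO and 117 CPM in WT, from 57 KO and 49 WT UMIs. Regulatory T cells had 9.26 CPM in KO and 13.0 CPM in WT, and CD8 T cells had 2.98 CPM in KO and 5.64 CPM in WT. In conventional CD4 T cells the ratio was 0.573 (0.421 to 0.781), but the thinned share of cells with a UMI ran the other way, at 30.7% in KO and 22.2% in WT. No order is read from these shares. Without cycling cells the values were 164 CPM in KO and 208 CPM in WT, a ratio of 0.789 (0.556 to 1.12), so the member was then within the fold.

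In conventional CD4 T cells the counts of other family genes stand beside 27.1% of all genes past the fold between KO and WT. Tnfsf11, which encodes RANK ligand, had 214 CPM in KO and 52.9 CPM in WT, a ratio of 4.04 (2.57 to 6.69). Tnfrsf1b was higher in KO, and Tnfrsf25 and Fas were lower, among 3 measured other receptors. Of 5 measured ligands, 1 was higher, Tnfsf11, and 2 were lower, Tnf and Ltb. Ltb, which encodes lymphotoxin beta, had 550.5 CPM in KO and 829 CPM in WT, a ratio of 0.664, and without T cells carrying myeloid transcripts 0 ligands were lower. Of 17 measured TRAF adaptors and NF-kB genes, 2 were higher (Traf3 and Tank) and 1 was lower. That one was Tnfaip3, with 139 CPM in KO and 313 CPM in WT, a ratio of 0.444.

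Antigen-presenting classes need a measurement of T cell transcripts beside these genes, since some cells held both. Cells with at least 2 T cell markers numbered 12 of 185 KO and 16 of 174 WT cDC1s, 25 of 103 KO and 14 of 63 WT cDC2s, and 10 of 68 KO and 16 of 70 WT macrophages. Mature DCs had 1 such cell of 60 in KO and 3 of 97 in WT. The summed level of the T cell markers was 308 CPM in KO and 368 CPM in WT cDC2s, and 4.94 CPM in KO and 3.00 CPM in WT without those cells. In macrophages it was 611 CPM in KO and 855 CPM in WT, and 46.9 CPM in KO and 5.84 CPM in WT without them, with Cd3d, Cd3e and Lck at 0 in KO. The dendritic cell gate had excluded CD4, CD8 and TCR beta, but the sorted categories were mixed before loading.

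Leaving those cells out removed nearly all Tnfrsf4 and Cd27 UMIs from cDC1s, cDC2s and macrophages, and most Tnfrsf9 UMIs. Tnfrsf4 in cDC2s had 83.9 CPM in KO and 49.7 CPM in WT with all cells, and 0 UMIs in both libraries without the cells holding T cell markers. In macrophages Tnfrsf4 had 143 CPM in KO and 294 CPM in WT, a ratio of 0.487, and 3 UMIs in KO and 0 in WT without them. Cd27 in macrophages had 18.2 CPM in KO and 48.0 CPM in WT, and 0 UMIs in both without them. With all cells, 3 of 5 measured members lay past the fold in macrophages, all lower in KO (18.4% of all genes). Without the mixed cells only Cd40 was measured, and it lay past the fold (25.4% of all genes). In cDC2s the count was 3 of 4 (12.8% of all genes) with all cells, and no count was made without the mixed cells because 49 WT cells remained. Tnfrsf9 in WT cDC2s kept 31 UMIs in 2 cells, and KO cDC2s kept 0. Tnfrsf18 kept a low level in conventional DCs, at 26.9 CPM in KO and 22.8 CPM in WT cDC1s and 28.7 CPM in KO and 31.5 CPM in WT cDC2s without the mixed cells.

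**Figure D4:**
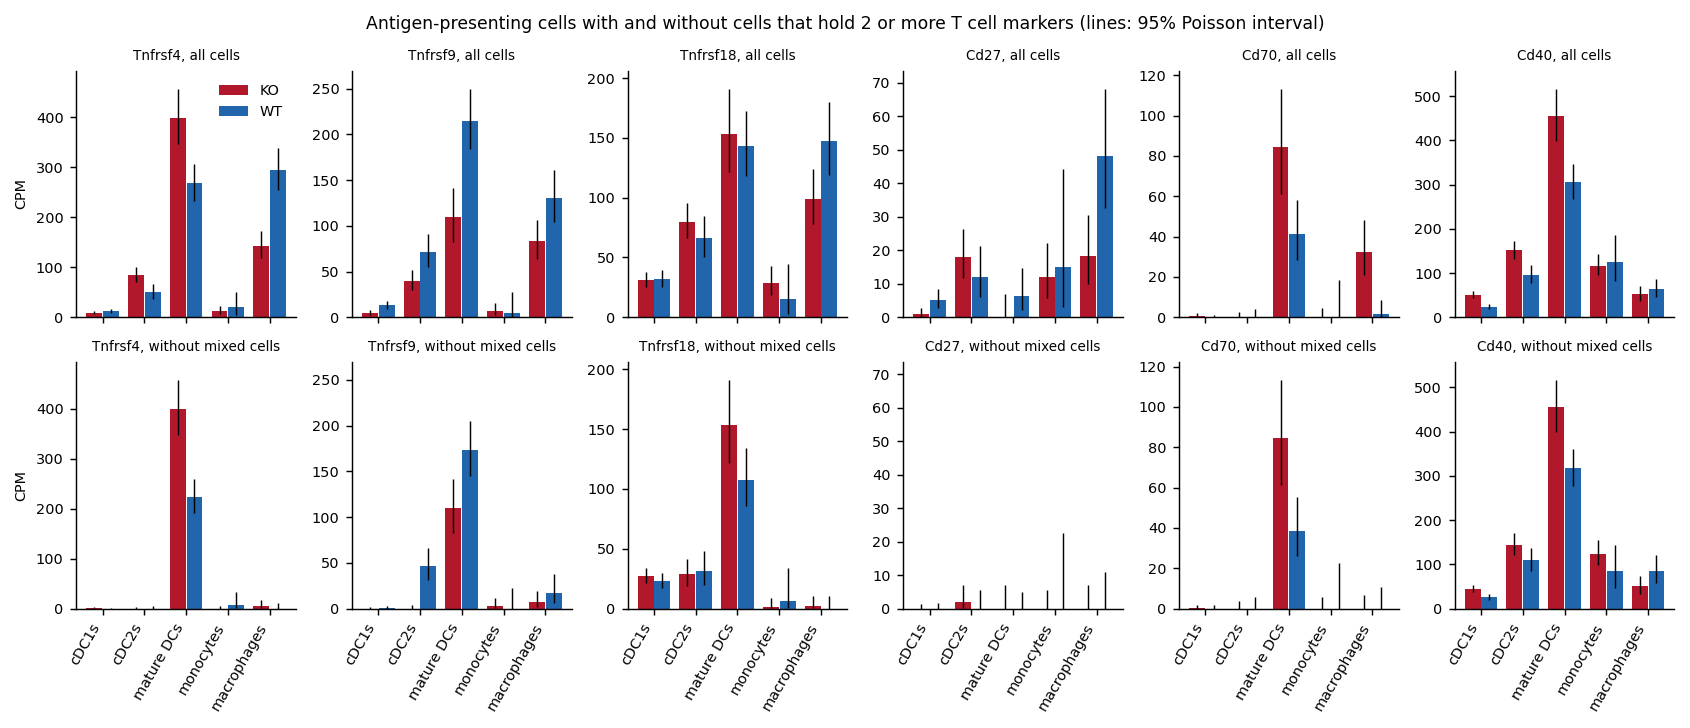
Summed level in CPM of the members in antigen-presenting classes, all cells above and without cells holding at least 2 T cell markers below, with KO left of WT and lines for the 95% Poisson interval. Tnfrsf4 in macrophages stands at 143 CPM in KO and 294 CPM in WT above, and at 5.63 CPM in KO and 0 in WT below, while Tnfrsf4 in mature DCs stays at 399.8 CPM in KO and 224 CPM in WT.

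Mature DCs, a state that had Fscn1, Ccr7 and Ccl22 among the markers used to name it, held Tnfrsf4, Tnfrsf9 and Tnfrsf18 at higher levels than cDC1s, cDC2s, monocytes and macrophages once the mixed cells were left out. Without the mixed cells, Tnfrsf4 had 399.8 CPM from 208 UMIs in KO and 224 CPM from 168 UMIs in WT, a ratio of 1.79 (1.45 to 2.20). With all cells the ratio was 1.49 (1.22 to 1.81), just within the fold, and the thinned shares were 41.1% in KO and 28.9% in WT. Tnfrsf9 went the other way, with 110 CPM in KO and 173 CPM in WT without the mixed cells, a ratio of 0.633 (0.455 to 0.871). With all cells Tnfrsf9 stood at 109 CPM in KO and 215 CPM in WT, a ratio of 0.508 (0.370 to 0.690). The thinned shares of Tnfrsf9 were close, at 16.1% in KO and 17.8% in WT. Tnfrsf18 had 154 CPM in KO and 108 CPM in WT without the mixed cells, a ratio of 1.43 (1.03 to 1.97), against 1.07 (0.794 to 1.44) with all cells. Of 5 measured members 2 lay past the fold with all cells (14.6% of all genes) and 3 without the mixed cells (15.3%).

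Cd40 was highest in mature DCs, and its KO value lay above its WT value in mature DCs, cDC2s and cDC1s. Mature DCs had 455 CPM (398 to 516) in KO and 306 CPM (268 to 346) in WT, a ratio of 1.49 (1.24 to 1.79). The thinned shares of mature DCs with a Cd40 UMI were 28.6% in KO and 31.1% in WT, so no order is read from them. In cDC2s Cd40 had 152 CPM in KO and 96.2 CPM in WT, a ratio of 1.58 (1.23 to 2.04), and 1.32 (0.989 to 1.77) without the mixed cells. In cDC1s it had 50.8 CPM (43.1 to 59.3) in KO and 23.3 CPM (18.0 to 29.7) in WT, a ratio of 2.17 (1.62 to 2.95). Without the mixed cells, cDC1s had 45.0 CPM in KO and 26.1 CPM in WT, a ratio of 1.73 (1.27 to 2.37). In cDC1s, 1 of 2 measured members lay past the fold, where 4.36% of all genes did, and without the mixed cells 1 of 1, where 5.19% did. The thinned share of cDC1s with a Cd40 UMI was 8.11% (4.61 to 13.0) in KO and 2.91% (0.950 to 6.65) in WT. CD8 T cells, which should lack the gene, had 0 UMIs in 183 KO and 172 WT cells, which allows shares of cells with a UMI of up to 1.64% in KO and 1.74% in WT.

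In monocytes the order of the libraries for Cd40 turned with the cells counted. All monocytes had 117 CPM in KO and 126 CPM in WT, in 88 KO and 26 WT cells. Without the mixed cells they had 124 CPM (98.6 to 154) from 81 UMIs in KO and 85.6 CPM (46.8 to 144) from 14 UMIs in WT, a ratio of 1.45 (0.817 to 2.77). Of the 25 WT UMIs, 11 lay in 3 mixed cells. Macrophages had 52.1 CPM in KO and 63.5 CPM in WT, and 50.7 CPM in KO and 84.7 CPM in WT without the mixed cells, a ratio of 0.598 (0.341 to 1.05). With all cells, the macrophage interval overlapped that of cDC1s in KO and lay above it in WT. B cells were too few to rank, with 9 cells in KO and 7 in WT.

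**Figure D5:**
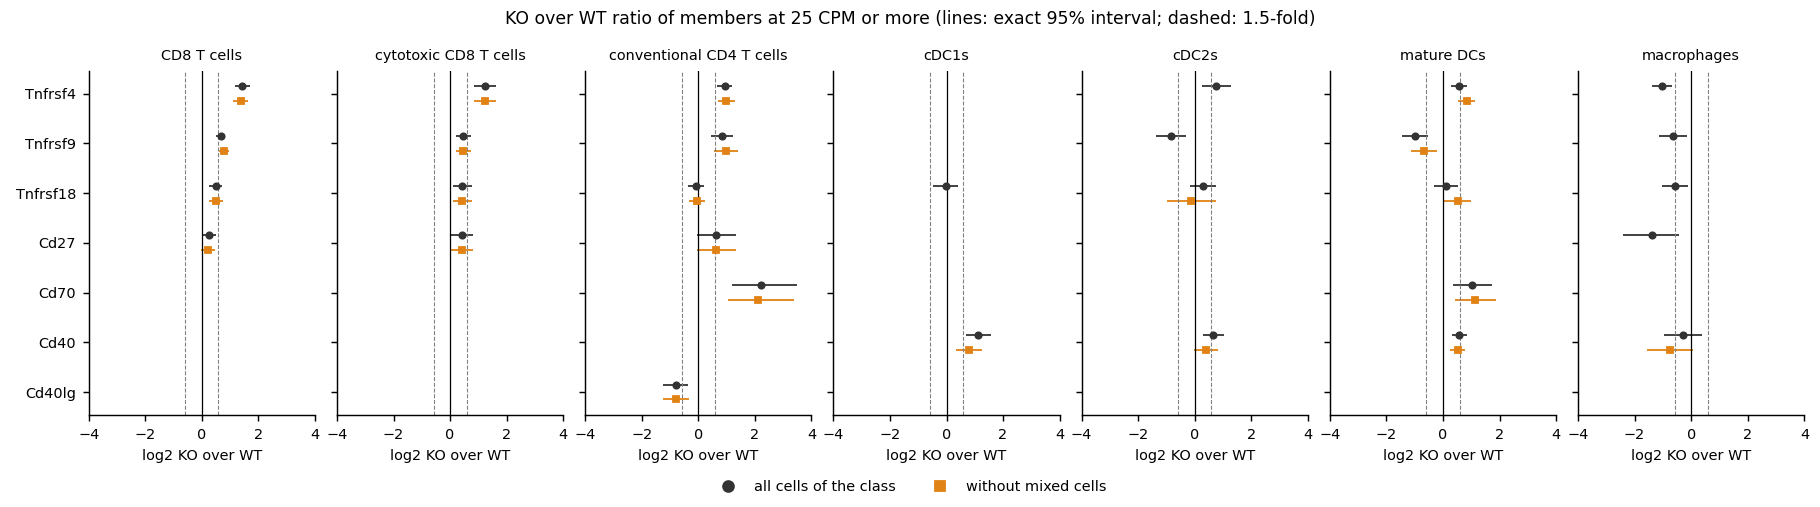
Ratio of KO to WT CPM on a log axis for the members at a mean of at least 25 CPM, by class, with circles for all cells, squares without mixed cells and lines for the exact 95% interval. Dashed lines mark the 1.5-fold limits, and Tnfrsf4 lies at 2.69 in CD8 T cells and 0.487 in macrophages with all cells.

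The ligands of the receptors were scarce. Tnfsf9 (4-1BB ligand) in mature DCs had 34.5 CPM from 18 UMIs in KO and 83.0 CPM from 66 UMIs in WT, a ratio of 0.416 (0.232 to 0.709). Without the mixed cells it had 34.6 CPM in KO and 65.2 CPM in WT, a ratio of 0.530 (0.291 to 0.927). The ligand and its receptor Tnfrsf9 were thus both lower in KO mature DCs. In cDC2s Tnfsf9 had 40.6 CPM in KO and 50.8 CPM in WT, a ratio of 0.799. Tnfsf4 (OX40 ligand) had 19.2 CPM in KO and 11.3 CPM in WT mature DCs, from 10 KO and 9 WT UMIs. Its UMIs lay in T cells too, with 16.9 CPM from 21 UMIs in KO and 4.28 CPM from 2 UMIs in WT cycling CD8 T cells. Cytotoxic CD8 T cells had 8.67 CPM from 5 UMIs in KO and 30.3 CPM from 12 UMIs in WT. Tnfsf18 (GITR ligand) was nearly undetected, with 2 UMIs in KO macrophages and 1 in WT cDC1s. Tnfsf9 and Cd70 lie beside each other on chromosome 17 with 38239 bases between them, and in mature DCs they differed in opposite directions.

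Genes that CD40 engagement is known to induce in antigen-presenting cells were counted in each class beside the share of all genes past the fold. In mature DCs 4 of 13 measured were higher in KO and 1 was lower, where 14.6% of all genes lay past the fold, and the median log2 ratio was 0.07 beside 0.00 for all genes. Il12b, which encodes a subunit of interleukin-12, had 633 CPM in KO and 306 CPM in WT, a ratio of 2.07 (1.75 to 2.46). The chemokine gene Ccl22 had 888 CPM in KO and 493 CPM in WT, and Ccl17 had 265 CPM in KO and 114 CPM in WT. Icosl, which encodes the ligand of ICOS, was the lower one. In cDC1s, where Cd40 itself was higher in KO, 0 of 5 measured were higher and 3 were lower, where 4.36% of all genes lay past the fold. The lower ones were Cd83, with 180 CPM in KO and 273 CPM in WT, Il1b, with 76.4 CPM in KO and 323 CPM in WT, and Ccl5, with 22.5 CPM in KO and 115 CPM in WT. Without the mixed cells 0 of 4 measured were higher and 2 were lower, Cd83 and Il1b. In cDC2s 1 of 10 was higher (Ccl17) and 3 were lower (Cd80, Cd83 and Ccl5), where 12.8% of all genes lay past the fold. The cDC2s without mixed cells were not counted, since 49 WT cells remained. In those cells Ccl22 had 54.4 CPM from 55 UMIs in KO and 8.99 CPM from 6 UMIs in WT, and Cd83 had 172 CPM in KO and 315 CPM in WT. Macrophages had 0 of 7 higher and 3 lower with all cells (18.4% of all genes past the fold), and 1 higher and 3 lower without the mixed cells (25.4%), with Il1b at 146 CPM in KO and 796 CPM in WT among all cells.

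Over 26 points, 13 classes in each of the 2 libraries, each member was set beside 6912 genes by Pearson's r of log2(CPM + 10). Points of 1 library share its depth and preparation, and the classes recur in both libraries, so the values describe likeness only. Tnfrsf18 was most like Sdf4 (r = 0.922), and so was Tnfrsf4 (r = 0.905), followed by Il2ra, the interleukin-2 receptor alpha chain (r = 0.887). Tnfrsf9 was most like Pdcd1, which encodes PD-1 (r = 0.888), and Cd27 was most like Prkch (r = 0.977). Cd40lg was most like Tnfrsf25, another TNF receptor gene (r = 0.943). Cd40 was most like Adrbk2 (r = 0.970) and Cd70 most like Cd200 (r = 0.812).

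Sdf4 ends 232 bases before the annotated start of Tnfrsf4 on the same strand. The Tnfrsf4 window printed above starts at chr4:156013445, before the end of Sdf4 at chr4:156013610. Sdf4 had 1241 CPM in KO and 1489 CPM in WT regulatory T cells. Conventional CD4 T cells had 995 CPM in KO and 484 CPM in WT, and CD8 T cells had 351 CPM in KO and 241 CPM in WT. Mature DCs had 274 CPM in KO and 249 CPM in WT, and cDC1s had 116 CPM in KO and 123 CPM in WT. Whether UMIs were assigned to the wrong one of these adjacent genes was not tested. An antisense gene, Gm16008, overlaps Tnfrsf18, and it had at most 3 UMIs in any of 5 classes looked at in either library. Whether the counting used strand is not stated in the sources at hand.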

How the data were processed

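Single-cell RNA was measured in 1 KO and 1 WT droplet library. Per the file headers, the deposited values are UMI counts for each gene and barcode, with no normalization. Cell Ranger 1.3 and mm10 are named per the submitters' processing notes, while the matrix header gives software version 3.0.2. The annotation release and chemistry are not given in the sources used here. Filters of 500 UMIs and 300 genes as minima and of 10% mitochondrial UMIs as a maximum left out 133 KO and 132 WT barcodes. Scrublet, with an expected rate of 6%, removed 3 KO (0.276%) and 5 WT (0.506%) barcodes, so doublets may remain. Both libraries were clustered together in scanpy 1.11.5 (Python 3.11.15, leidenalg 0.10.2) on 2000 variable genes without the TNF family, 30 components, 15 neighbours and Leiden resolution 1, giving 18 clusters. Classes were named by at least 3 markers in at least 25% of cells. Cluster 14 (12 KO, 20 WT cells), with regulatory T cell and cDC1 markers in the same cells, stayed unnamed. The T cell markers Trac and Trbc2 and the B cell marker Iglc2 were not used here. Cycling cells held at least 3 cycling genes. Naive-like cells held at least 2 naive genes, no UMI of Gzmb, Prf1, Pdcd1, Lag3 or Havcr2, and were not cycling. Their gate thus left out cells with these activation genes. Cytotoxic CD8 T cells held a UMI of Gzmb or Prf1 and were neither naive-like nor cycling. Mixed cells were antigen-presenting cells with at least 2 T cell markers, or T cells with over 0.5% of UMIs from myeloid genes.

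CPM were computed from class sums with exact Poisson intervals (scipy 1.17.1), ratios with exact conditional binomial intervals, and shares with Clopper-Pearson intervals after thinning to 2000 UMIs. A count of 0 was given a floor of 3. The ratio calls were run on simulated class sums with 200 genes changed 3-fold, drawn with counting error only and no spread between cells. A 3-fold change lies well past the 1.5-fold limit, so its recovery was likely beforehand. In CD8 T cells all changed genes that still met the count filter were called. Of unchanged genes, 2.15% were past the fold there, among 4356 genes. For conventional CD4 T cells 11.6% of unchanged genes were past it among 4739, and for cDC1s 0.312% among 4024. Recovery of changes nearer to the 1.5-fold limit was not tested. How often unchanged genes lie past the fold between real libraries of the same genotype was not tested either, since each group is 1 library. All 7 members were named in every class, their 3 ligands where they had at least 3 UMIs, the 4 genes of each list with the largest ratio by the interval bound nearest to 1, and the 3 genes most like each member. List genes outside that rule were named for passing the fold, after their values were seen. Members and lists were chosen with earlier results of these data known. Positions came from GENCODE on GRCm38, in which 98.7% of gene IDs were found, and promoters from RefSeq. Alternatives changed the normalization, filters, thinning, gates, clusters and fold.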

Additional observations from a re-analysis of the deposited data

Results flagged for a closer look

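Tnfrsf9 differed between KO and WT in opposite directions in different classes. Its log2 ratio of KO over WT was 0.67 in CD8 T cells and 0.84 in conventional CD4 T cells, and -0.98 in mature DCs. The difference between these classes was not tested, since each group is 1 library. In mature DCs the ratio without cells holding T cell markers was 0.633 (0.455 to 0.871), in the same direction as with all cells. The thinned shares of mature DCs with a Tnfrsf9 UMI were 16.1% in KO and 17.8% in WT. In conventional CD4 T cells the log2 ratio was -0.67 when the gates were set on thinned cells, the same sign as in mature DCs. Within cluster 7, the CD8 T cells had a ratio of 1.04 (0.908 to 1.20).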

How the results depend on the processing

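No paired analysis was possible because each group is 1 library. Leaving out a library was not possible for the same reason. With 1 library per group, animals, libraries and genotype cannot be told apart. Cycling and Gzmk-positive CD8 T cells, regulatory T cells and monocytes had under 50 cells in a library, so their members were not counted past the fold between KO and WT, and neither were those of cDC2s without mixed cells, since 49 WT cells remained. Depth limits Cd70, Cd40lg and the ligands, which had few UMIs.

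The count of members past the fold, KO over WT, was 2 in CD8 T cells, and it was 4 with no filter on low counts, 1 with classes drawn by cluster and 1 at a fold of 2. In cytotoxic CD8 T cells it was 1, and 2 when each cell's CPM was averaged, with gates on thinned cells, with classes by cluster and without the top cell of each gene. In conventional CD4 T cells it was 5, and 3 when each cell's CPM was averaged, 2 with gates on thinned cells, 1 with classes by cluster and 1 at a fold of 2. In cDC1s it was 1, and 0 with a filter of 50 CPM, 4 with no filter and 3 with the members kept in the variable genes. In cDC2s it was 3, and 0 at a fold of 2 and 1 with the members kept in the variable genes. In mature DCs it was 2, and 4 with at least 1000 UMIs per cell, 1 at a fold of 2 and 4 with the members kept in the variable genes. In macrophages it was 3, and 5 with no filter and 1 without mixed cells.

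In conventional CD4 T cells, gates on thinned cells turned the log2 ratio of Tnfrsf4 to -0.039, of Tnfrsf9 to -0.67 and of Cd27 to -0.18, and classes by cluster turned that of Tnfrsf4 to -0.11. Thinned gates turned the KO log2 ratio of Cd70, regulatory over conventional CD4 T cells, to 0.61. The cause was not tested. The other values were ratios and shares of single members and the likeness r values. Of these, 802 stayed inside their main interval, or within a set margin for r, and 102 moved further. A change of sign was labelled only where the main ratio lay past the fold. Changing the fold or the low-count filter leaves a ratio as it is, so those settings could not move it. Another 71 counts stayed within 1.5 times. Alternatives without the Foxp3-rich cluster were chosen after seeing the data. So was the alternative without cells holding Il2ra or Ikzf2 where it compared KO with WT.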

Other observations

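Cells that the gates put in no class also held the receptors. T cells with UMIs of neither Cd4 nor the CD8 genes (133 in KO, 117 in WT) had Tnfrsf18 at 499 CPM in KO and 546 CPM in WT, and Cd27 at 129 CPM in KO and 209.9 CPM in WT. T cells with both co-receptors (20 in KO, 21 in WT) had Tnfrsf18 at 393 CPM in KO and 556 CPM in WT. The unnamed cluster with T cell and cDC1 markers in the same cells (12 in KO, 20 in WT) had Tnfrsf4 at 721 CPM in KO and 969.5 CPM in WT, and it gave 15.9% of all Tnfrsf4 UMIs of the WT library. Its Cd40 stood at 0 UMIs in KO and 5 UMIs in WT.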
